A study of Mus musculus with 2 samples.

Results

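The genes examined here encode the structural proteins of the synaptonemal complex and the HORMA domain proteins of the meiotic chromosome axis. The 9 genes, *Sycp1*, *Sycp2*, *Sycp3*, *Syce1*, *Syce2*, *Syce3*, *Tex12*, *Hormad1* and *Hormad2*, were chosen by name from 39695 gene entries, and all 9 passed the filter of a mean RPKM of at least 1 that 14831 entries passed. RPKM is the number of reads on a gene scaled to its length and to the size of the library. The RNA came from whole testes of 9-day-old (P9) mice, with 1 library from control and 1 library from Bcas2F/-;Vasa-Cre males. Controls were Bcas2F/- males without Vasa-Cre, with 1 floxed (F) and 1 deleted (-) allele, so both groups carried a deleted allele. In Bcas2F/-;Vasa-Cre males the Cre recombinase, expressed under the *Vasa* promoter in germ cells, removes the floxed allele in germ cells and leaves it in the somatic cells of the testis. The strain is C57BL/6 in the labels and a mixed 129/C57BL/6 background in the methods of the study. The number of mice behind each library is not given in the sources used here. Since each genotype had 1 library, the differences below could not be checked against replicate libraries, and the genotypes were not tested. By real-time RT-PCR of P9 testes, the study itself reported significantly lower *Sycp1* and *Sycp3* mRNA (as *Scp1* and *Scp3*), which was not re-examined here.

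During the first meiotic prophase, each pair of sister chromatids is folded into loops along a protein axis, and the axes of homologous chromosomes are then joined along their length by the synaptonemal complex. SYCP2 and SYCP3 form the lateral elements on the axes, SYCP1 forms the transverse filaments that bridge them, and SYCE1, SYCE2, SYCE3 and TEX12 form the central element where the SYCP1 filaments from both sides meet. HORMAD1 and HORMAD2 bind the axes before synapsis and are removed from them as synapsis proceeds. In the male mouse, the first germ cells enter meiosis in the second week after birth, so P9 testes hold spermatogonia, the earliest spermatocytes and the somatic cells of the tubules and interstitium. The study deleted *Bcas2*, which encodes a component of the spliceosome-associated PRP19 complex, and asked how germ cells that lack it fare at the start of meiosis.

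All 9 genes were detected in both libraries, and all 9 had a lower RPKM in the Bcas2F/-;Vasa-Cre library than in the control library. The differences ran from 2.40% lower for *Tex12* to 43.7% lower for *Syce3*. Among all 14831 genes tested, 46.3% were lower in the Bcas2F/-;Vasa-Cre library. On the scale used for calls, the log2 ratio of RPKM + 1 in Bcas2F/-;Vasa-Cre over control, the median of the 9 genes was -0.35 (SD across the 9 genes 0.24), beside a median of 0.015 (SD across genes 0.259) over all genes tested. By the fold threshold, 1 of the 9 genes, *Syce3*, was past 1.5-fold lower, as were 1.69% of all genes tested, and 0 of the 9 were past 1.5-fold higher, beside 1.57% of all genes tested. The count depends on the pseudocount, since *Sycp1* and *Hormad1* were also past 1.5-fold lower, 3 of the 9 in all, with a pseudocount of 0.1 or 0.01 in place of 1. The 9 genes lie in a range of RPKM where ratios scatter less than among low genes, and in the class with a mean RPKM from 5 to under 100, which holds all 9 of them, the SD of the log2 ratio over 9521 genes was 0.210. In that class 45.9% of genes were lower in the Bcas2F/-;Vasa-Cre library and 1.04% were past 1.5-fold lower. The read numbers behind the RPKM values were recovered from the values themselves, and for 6 of the 9 genes the 95% Clopper-Pearson interval of the RPKM ratio lay wholly below 1, as it did for 16.6% of all genes tested. These intervals cover counting error only and leave out the spread between mice and library preparations.

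**Figure D1:**
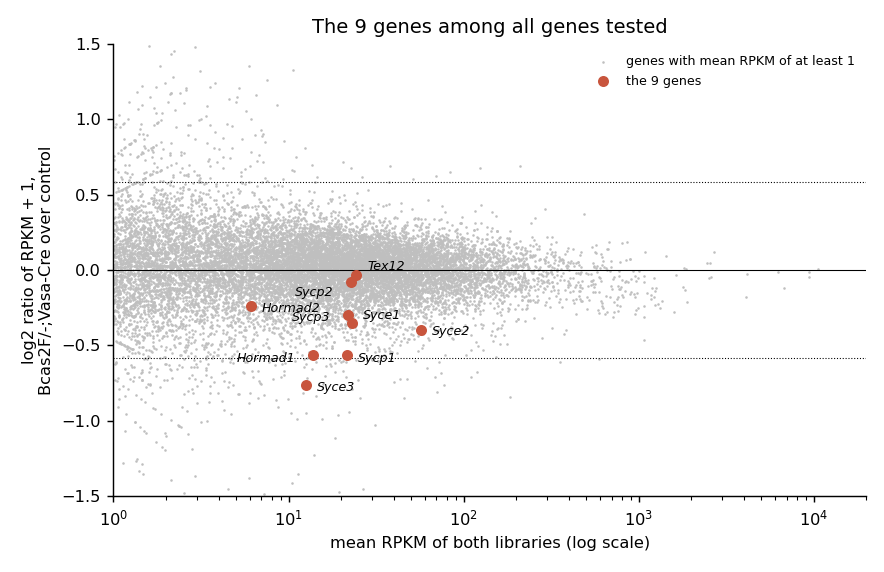
Log2 ratio of RPKM + 1 (Bcas2F/-;Vasa-Cre over control) against the mean RPKM of both libraries (log scale) for the 14831 genes tested (grey) and the 9 genes (red, named), with 1 library per genotype. Dotted lines mark 1.5-fold, 37 genes lie beyond the vertical axis, and all 9 genes lie below 0, from *Tex12* at -0.03 to *Syce3* at -0.76.

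The targeted gene served as the check of the labels. *Bcas2* on chr3:103171655-103179166 (GRCm38) had an RPKM of 39.5 in the control and 25.7 in the Bcas2F/-;Vasa-Cre library, from 1410 and 888 reads. The log2 ratio of RPKM + 1 was -0.60, and the RPKM ratio was 0.649 (counting interval 0.596 to 0.706), in the direction the labels give. The floxed exons were not examined apart from the rest of the gene, since the values are per gene.

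*Sycp1* (chr3:102818499-102936100, minus strand, 33 exons in its longest transcript), the gene of the transverse filament, had an RPKM of 26.1 in the control library and 17.3 in the Bcas2F/-;Vasa-Cre library, from 1785 and 1150 reads. The RPKM ratio was 0.664 (counting interval 0.616 to 0.715) and the log2 ratio of RPKM + 1 was -0.56, just short of the 1.5-fold line on that scale. *Sycp1* had the most reads of the 9 genes and therefore the narrowest interval. It lies on the same chromosome as the targeted gene, with 235554 bases between the end of *Sycp1* and the start of *Bcas2*. Of the 6 other genes tested within 500000 bases of *Bcas2*, 4 were lower and their log2 ratios had a median of -0.02, with the highest at 0.23 for *Trim33* and the lowest at -0.54 for *Dennd2c*. *Trim33* and *Dennd2c* were named after their values were seen.

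The lateral element genes differed less. *Sycp3* (chr10:88459569-88473236, plus strand, 8 exons) had an RPKM of 24.1 in the control and 19.4 in the Bcas2F/-;Vasa-Cre library, from 518 and 404 reads. The RPKM ratio was 0.804 (counting interval 0.704 to 0.917) and the log2 ratio of RPKM + 1 was -0.30. *Sycp2* (chr2:178345293-178407685, minus strand, 44 exons) encodes the larger lateral element protein, which binds SYCP3. Its RPKM was 23.3 in the control and 22.0 in the Bcas2F/-;Vasa-Cre library, from 1128 and 1036 reads. The RPKM ratio of *Sycp2* was 0.946, and its interval from 0.869 to 1.03 includes no difference at this depth. The summed RPKM of the lateral element pair was 47.4 in the control and 41.4 in the Bcas2F/-;Vasa-Cre library. *Sycp3* shares 660 exon bases with *Chpt1* on the opposite strand, whose RPKM was 39.7 in the control and 43.7 in the Bcas2F/-;Vasa-Cre library. The counting was not stated to use strand, so reads in the shared bases cannot be told apart.

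The central element held both the largest and the smallest difference of the 9 genes. *Syce3* (chr15:89390174-89410503, minus strand, 3 exons), a small protein needed to load the other central element proteins, had an RPKM of 16.2 in the control and 9.12 in the Bcas2F/-;Vasa-Cre library. These values rest on 150 and 82 reads, and the RPKM ratio of 0.563 had a counting interval from 0.425 to 0.742. Its log2 ratio of RPKM + 1 was -0.76, and 112 of the 14831 genes tested (0.755%) had a lower value. *Tex12* (chr9:50556819-50561325, minus strand, 5 exons), the partner of SYCE2 in a filament-forming complex, had an RPKM of 24.7 in the control and 24.1 in the Bcas2F/-;Vasa-Cre library, from 303 and 287 reads. Its RPKM ratio was 0.976, and its counting interval from 0.828 to 1.15 includes no difference as well as ratios down to 0.828. *Syce2* (chr8:84872111-84888221, plus strand, 5 exons) had the highest RPKM of the 9 genes in both libraries, at 65.1 in the control and 49.3 in the Bcas2F/-;Vasa-Cre library. The RPKM ratio of *Syce2* was 0.756 (counting interval 0.693 to 0.825) from 1221 and 896 reads. *Syce1* (chr7:140777229-140787852, minus strand, 13 exons), whose protein binds SYCE3 and SIX6OS1, had an RPKM of 26.0 in the control and 20.2 in the Bcas2F/-;Vasa-Cre library. The RPKM ratio of *Syce1* was 0.777 (counting interval 0.696 to 0.868) from 757 and 571 reads. Together the 4 central element genes had a summed RPKM of 132 in the control and 103 in the Bcas2F/-;Vasa-Cre library.

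The HORMA domain genes bind the unsynapsed axes. *Hormad1* (chr3:95559677-95587671, plus strand, 16 exons), which is needed for double-strand break formation and synapsis, had an RPKM of 16.6 in the control and 10.9 in the Bcas2F/-;Vasa-Cre library, from 461 and 294 reads. The RPKM ratio was 0.657 (counting interval 0.566 to 0.762) and the log2 ratio of RPKM + 1 was -0.56. *Hormad2* (chr11:4345814-4441105, minus strand, 11 exons), which takes part in the surveillance of unsynapsed chromosomes, had an RPKM of 6.67 in the control and 5.49 in the Bcas2F/-;Vasa-Cre library, from 144 and 115 reads. Its RPKM ratio of 0.823 had an interval from 0.638 to 1.06, which includes no difference at this depth. The summed RPKM of the HORMA pair was 23.3 in the control and 16.4 in the Bcas2F/-;Vasa-Cre library. *Hormad1* has a processed pseudogene, *Gm15529*, with 97.7% identity over 922 bases, which was listed at 0.0505 RPKM in the control and at 0 in the Bcas2F/-;Vasa-Cre library. Processed pseudogenes *Gm7167* (92.1% identity to *Hormad1* over 1112 bases) and *Sycp1-ps1* (92.4% identity to *Sycp1* over 2560 bases) had no matched entry here. How the counting divided reads between these copies is not given in the sources used here.

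**Figure D2:**
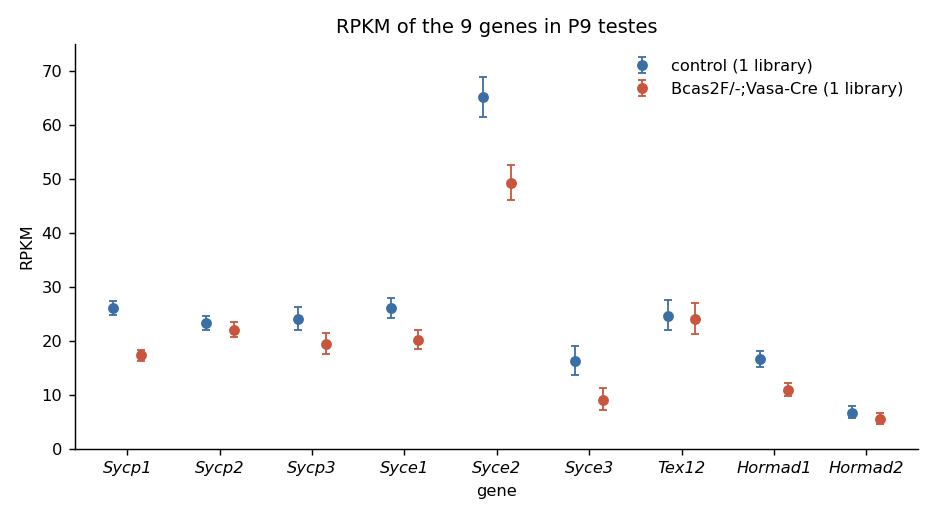
RPKM of each of the 9 genes in the control (blue) and the Bcas2F/-;Vasa-Cre library (red), 1 library each. Bars are exact 95% Poisson intervals of the reads and cover counting error only, and *Syce2* stands above the other genes in both libraries. The bars of both libraries overlap for 3 genes (*Sycp2*, *Tex12* and *Hormad2*), and the share of all genes with such overlap was not computed.

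The order of the levels differed between the libraries. In the control, *Syce2* was followed by *Sycp1*, *Syce1*, *Tex12*, *Sycp3* and *Sycp2*, which lay within 23.3 to 26.1 RPKM and whose neighbours in the order had overlapping Poisson intervals. *Hormad1* and *Syce3* came next, at 16.6 and 16.2 RPKM with overlapping intervals, and *Hormad2* was the lowest at 6.67. In the Bcas2F/-;Vasa-Cre library the middle group was ordered *Tex12*, *Sycp2*, *Syce1*, *Sycp3* and *Sycp1*, again with overlapping neighbours, and spread from 24.1 to 17.3 RPKM. *Sycp1* thus stood at rank 2 in the control and at rank 6 in the Bcas2F/-;Vasa-Cre library, whereas *Syce2*, *Hormad1*, *Syce3* and *Hormad2* held ranks 1, 7, 8 and 9 in both. The levels depend on the gene lengths that were used for RPKM. The length behind the *Sycp2* values was 2433 bases, the mean of its annotated transcripts, while its longest transcript has 5717 bases. Scaled to the longest transcript, *Sycp2* had 9.91 RPKM in the control and rank 8, and *Tex12* had 15.2 RPKM and rank 7. On that scale *Sycp1* stood at rank 2 in the control and rank 4 in the Bcas2F/-;Vasa-Cre library, *Syce3* at ranks 5 and 8, *Tex12* at ranks 7 and 5, and *Sycp2* at ranks 8 and 7. *Syce2*, *Hormad1* and *Hormad2* had the same rank in both libraries on either scale. The recovered *Tex12* reads rest on a length of 617 bases, below its shortest annotated transcript of 895 bases. They may be a multiple of those used, so the *Tex12* level on the longest-transcript scale may be too low. The ranks on that scale are uncertain to this extent. The RPKM ratios between the libraries do not depend on the gene length used, whereas the log2 ratios of RPKM + 1 do, through the pseudocount.

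Because the 9 genes were measured in the same libraries, pairs of them were compared by the difference of their log2 RPKM ratios (no pseudocount) with an exact 95% interval of the read counts, again as counting error only. Of 36 pairs, 18 had an interval that left out 0, without correction for the number of pairs. The share among pairs of other genes was not computed, and the 36 pairs reuse the same 9 genes. The count therefore does not show whether the 9 genes differ from each other more than other genes do. *Sycp2* took part in 6 of these pairs, *Sycp1*, *Syce3* and *Tex12* in 5 each, and *Hormad2* in 0. *Sycp1* minus *Sycp2* was -0.51 (-0.68 to -0.35), and the RPKM of *Sycp1* relative to *Sycp2* was 1.12 in the control and 0.786 in the Bcas2F/-;Vasa-Cre library. Within the central element, *Syce3* minus *Tex12* was -0.79 (-1.27 to -0.32) and *Syce2* minus *Tex12* was -0.37 (-0.64 to -0.10). The RPKM of *Syce2* relative to its partner *Tex12* was 2.64 in the control and 2.05 in the Bcas2F/-;Vasa-Cre library. In contrast, *Syce1* minus *Syce2* was 0.04 (-0.16 to 0.24), and *Sycp1* minus *Hormad1* was 0.01 (-0.23 to 0.26). *Hormad1* minus *Hormad2* was -0.32 (-0.75 to 0.10), an interval that includes 0. Beyond counting error, the differences within the 9 genes have no replicate check either.

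**Figure D3:**
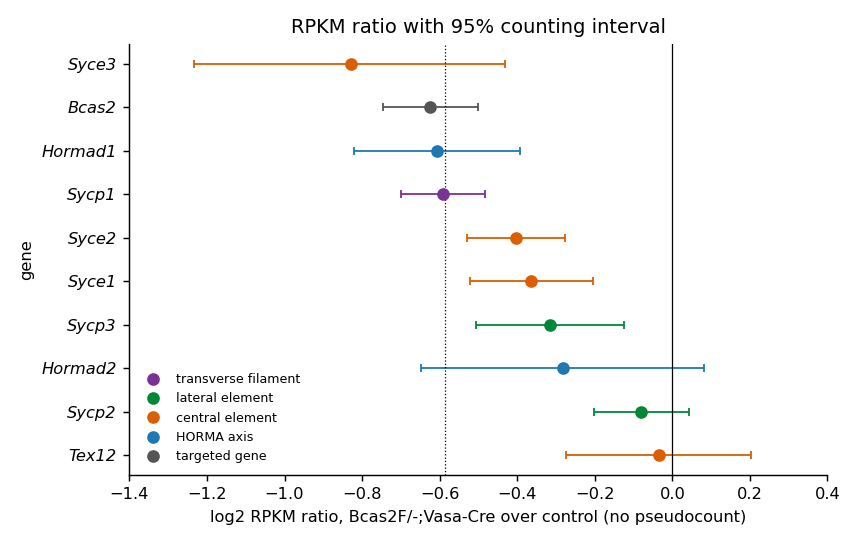
Log2 RPKM ratio (Bcas2F/-;Vasa-Cre over control, no pseudocount) of the 9 genes and *Bcas2* with 95% Clopper-Pearson intervals of the recovered reads, coloured by role. The dotted line marks 1.5-fold lower, and the intervals of *Sycp2*, *Tex12* and *Hormad2* reach across 0.

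The proximal promoters were examined for motifs of factors known from meiotic gene control. Before the start sites in RefSeq (GRCm38.p6), 250 bases were searched on both strands for TTCCCGC (E2F family, GCGGGAA on the other strand), CACGTG (the E-box bound by MAX with MGA, which reads the same on both strands) and CNCCTCAG (a motif at promoters bound by STRA8). E2F6 with MGA and MAX belongs to a repressor complex that keeps meiotic genes silent in other cells. The E2F motif was found in 4 of the 9 genes, beside 4.38% of the 27025 genes in the table. The E-box was found in 5 of the 9, beside 6.86%, and the STRA8 motif in 2 of the 9, beside 7.39%. Both the E2F motif and the E-box were found for *Sycp3*, *Syce2*, *Tex12* and *Hormad1*, that is 4 of the 9 genes, beside 101 genes (0.374%) of the table. The GC content of the searched windows was from 53.2% to 68.0% in the 9 genes, beside a median of 52.4% over all 32851 promoters. The E2F motif and the E-box each contain a CG dinucleotide (CpG). Windows of the 9 genes held 5 (*Syce3*) to 24 (*Syce2*) CpG, and those with an E2F match or E-box 12 to 24. The median over all promoters was 6, and the shares over all genes were not matched for CpG content. A match is a description of the letters and not evidence of binding.

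The sequences before the start are shown for the genes in which both motifs or the E-box lie upstream of all annotated starts, and for *Syce3*, the gene with the largest difference, which had no match. Each runs 5′ to 3′ on the strand of the gene from 150 bases before its RefSeq start to the last base before any annotated transcript, with E2F matches and E-boxes in capitals. *Sycp3* (chr10:88459437-88459568, plus strand) has the E2F motif 147 to 141 bases before the start and E-boxes at 64 to 59 and at 43 to 38. *Tex12* (chr9:50561326-50561418, minus strand) has the E2F motif at 145 to 139 and the E-box at 93 to 88. *Hormad1* (chr3:95559527-95559676, plus strand) has the E2F motif at 95 to 89 and E-boxes at 57 to 52 and at 20 to 15. *Sycp1* (chr3:102936101-102936250, minus strand) has the E-box alone, at 94 to 89, and the *Syce3* window is chr15:89410504-89410653 on the minus strand.
Sycp3: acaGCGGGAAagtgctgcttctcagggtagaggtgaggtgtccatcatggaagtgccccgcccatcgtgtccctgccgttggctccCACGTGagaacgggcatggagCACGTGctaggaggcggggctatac
Tex12: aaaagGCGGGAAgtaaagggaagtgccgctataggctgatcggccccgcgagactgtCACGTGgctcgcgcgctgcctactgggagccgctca
Hormad1: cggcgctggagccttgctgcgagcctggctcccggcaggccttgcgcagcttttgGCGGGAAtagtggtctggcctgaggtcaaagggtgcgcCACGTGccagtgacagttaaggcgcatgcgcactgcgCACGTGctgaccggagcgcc
Sycp1: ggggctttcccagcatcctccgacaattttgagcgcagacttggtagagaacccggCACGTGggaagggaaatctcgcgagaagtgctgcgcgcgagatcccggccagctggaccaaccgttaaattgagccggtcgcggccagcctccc
Syce3: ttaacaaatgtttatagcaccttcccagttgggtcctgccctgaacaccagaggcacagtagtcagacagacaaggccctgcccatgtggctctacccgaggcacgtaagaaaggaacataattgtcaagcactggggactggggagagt

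The matches of *Syce2* lie before the second of its 2 RefSeq starts, with the E-box at 88 to 83 bases, the STRA8 motif at 39 to 32 and the E2F motif at 34 to 28, so the last 2 overlap. Since these bases lie after the first start, they are not printed. *Hormad2* had the STRA8 motif alone, at 109 to 102 bases before its start. *Sycp2*, *Syce1* and *Syce3* had no match to the 3 motifs in these windows. The log2 ratios of RPKM + 1 of the genes with an E-box were -0.56 (*Sycp1* and *Hormad1*), -0.40 (*Syce2*), -0.30 (*Sycp3*) and -0.03 (*Tex12*), and those without it were -0.76 (*Syce3*), -0.35 (*Syce1*), -0.24 (*Hormad2*) and -0.08 (*Sycp2*). The values of genes with and without an E-box overlap over most of their range.

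**Figure D4:**
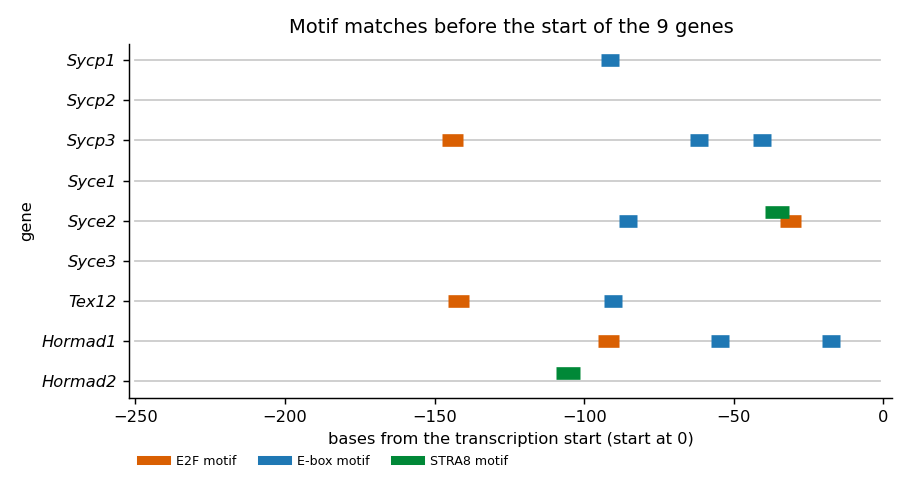
Positions of E2F (orange), E-box (blue) and STRA8 (green) matches in the 250 bases before the start of each of the 9 genes, in bases from the start. For *Syce2* the second RefSeq start is drawn and for *Hormad1* the first, the E-box of *Sycp3*, *Syce2*, *Tex12* and *Hormad1* lies nearer to the start than the E2F match in 3 of these 4 genes, and *Sycp2*, *Syce1* and *Syce3* have no match.

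The 9 genes were next set beside other genes of meiotic prophase. Of 25 genes that act with the axis and the synaptonemal complex in synapsis and recombination, 22 were matched and 20 tested, of which 13 were lower and 7 higher, with a median log2 ratio of RPKM + 1 of -0.12. Past 1.5-fold lower were 3 of the 20 and past 1.5-fold higher 0. These were *Tex11*, *Ccnb1ip1* and *Mei1*. *Tex11*, an X-linked regulator of crossovers, had 33.2 and 18.0 RPKM in the control and Bcas2F/-;Vasa-Cre libraries (log2 -0.85). The log2 ratio was -0.82 for *Ccnb1ip1*, a crossover ligase, and -0.72 for *Mei1*, which acts in double-strand break formation. The gene of the central element protein SIX6OS1, which binds SYCE1, had 55.6 RPKM in the control and 63.6 in the Bcas2F/-;Vasa-Cre library (log2 0.19), a level near that of *Syce2* and a ratio on the other side of 0. *Trip13*, whose protein removes HORMAD1 and HORMAD2 from synapsed axes, had 26.4 and 24.0 RPKM (log2 -0.13). With *Six6os1* counted among them, central element genes lay on both sides of 0.

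All 6 tested genes of 7 meiotic cohesin subunits and their protectors were lower, with a median of -0.20, and 1 was past 1.5-fold lower. Cohesin forms the core of the axis on which SYCP2, SYCP3 and the HORMAD proteins assemble. *Smc1b* had 25.6 RPKM in the control and 11.3 in the Bcas2F/-;Vasa-Cre library (log2 -1.11), a larger difference than that of any of the 9 genes. *Stag3* had 42.1 and 28.2 RPKM (log2 -0.56), and *Smc3*, which is shared with mitotic cohesin, had 131 and 125 RPKM (log2 -0.08). Of 6 genes that tether telomeres to the nuclear envelope in meiosis, 4 were lower and 2 higher, with a median of -0.03, and 1, *Majin*, was past 1.5-fold lower (2.01 and 0.997 RPKM, log2 -0.59). Of the HORMA domain genes used outside meiosis, 3 of 5 were lower and 2 higher, 0 were past 1.5-fold, and the median was -0.07. Among them *Mad2l1* of the spindle checkpoint had 67.5 and 60.5 RPKM (log2 -0.16), and *Atg13* of autophagy had 37.1 and 42.4 RPKM (log2 0.19). Of 12 meiotic entry genes 8 were lower and 4 higher, with a median of -0.25, and 4 were past 1.5-fold lower. The 4 were *Meioc* (log2 -0.95), *Prdm9* (-0.76), *Meiosin* (-0.66) and *Stra8*, the retinoic acid target at meiotic entry, with 87.2 and 56.8 RPKM (-0.61).

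Markers of germ cells as a whole were also lower in the Bcas2F/-;Vasa-Cre library. By real-time RT-PCR of P9 testes, however, the study reported similar mRNA of *Ddx4* (as *Mvh*), *Dazl*, *Stra8* and *Kit* in both genotypes. It reported the same for *Sohlh1*, *Sohlh2*, *Neurog3* (as *Ngn3*), *Nanos2*, *Pou5f1* and *Sox2*. Its counts of PLZF-positive cells, and of MVH-positive cells at the basement membrane, did not differ significantly at slightly later ages. All 10 pan-germ-cell genes were lower in the Bcas2F/-;Vasa-Cre library, with a median log2 ratio of RPKM + 1 of -0.24 and 0 past 1.5-fold, and their summed RPKM was 806 in the control and 639 in the Bcas2F/-;Vasa-Cre library. The highest of them were *Taf7l* (191 and 151 RPKM), *Dazl* (165 and 125) and *Mael* (141 and 99.5). The lists share genes, since *Dazl* is also among the meiotic entry genes. *Stra8* is both a meiotic entry gene and in the list of differentiating spermatogonia below. The study reported altered splicing of *Dazl*, which was not analysed here. Of 11 tested genes of undifferentiated spermatogonia 8 were lower and 3 higher, with a median of -0.18. The summed RPKM of the list was 212 and 170. Past 1.5-fold lower were *Nanos3* (-0.99) and *Sall4* (-0.71), and 0 were past 1.5-fold higher. *Etv5*, among the 3 highest by mean RPKM, was higher (0.20). The counting interval of the RPKM ratio lay wholly below 1 for 6 of the 11 and wholly above 1 for 2. Of 9 genes of differentiating spermatogonia 6 were lower and 3 higher, with a median of -0.37 and a summed RPKM of 578 and 457. Past 1.5-fold lower were *Dmrtb1* (-0.79) and *Stra8*, and 0 were past 1.5-fold higher. The counting interval lay wholly below 1 for 6 of the 9 and wholly above 1 for 3. The highest log2 ratios of the tested genes in these lists were those of *Nanos2* (0.49, undifferentiated) and *Neurog3* (0.47, differentiating), named after their values were seen. All 9 tested Sertoli cell genes were higher, with a median of 0.12 and a summed RPKM of 3652 and 3995, and *Rhox5* was listed at 0 in both libraries. Of the 9, *Gata4* (0.0078) and *Fshr* (0.0044), chosen after their values were seen, lay so near 0 that they were below it once ratios were centred on the median of the genes tested. In RNA of whole testes, fewer cells of a type and less RNA per cell cannot be told apart. Relative to the pan-germ-cell median, an alternative added after seeing the data, the median of the 9 genes was -0.10, 6 of the 9 were below 0, and 0 were past 1.5-fold lower. Among all genes tested, 89 were past 1.5-fold lower on that scale. It moves every gene up, so fewer of all genes lie below 0 than on the main scale, and that share was not computed. On that scale *Syce3* (-0.52), *Sycp1* (-0.32) and *Hormad1* (-0.32) were the lowest, and *Tex12* (0.21), *Sycp2* (0.17) and *Hormad2* (0.0025) lay above 0. The part of germ cell content in the values of the 9 genes was not tested further. Most genes of later spermatocytes and spermatids were near the floor, with 3 of 10 tested, of which 1 was lower and 2 higher. The summed RPKM over the 10 was 16.0 and 15.8, and most of it came from *Hspa2* (11.4 and 11.8 RPKM). The sum therefore says little about the other genes of the list. The lower gene was *Piwil1* (log2 -0.48), whose RPKM ratio had a counting interval from 0.421 to 0.748.

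**Figure D5:**
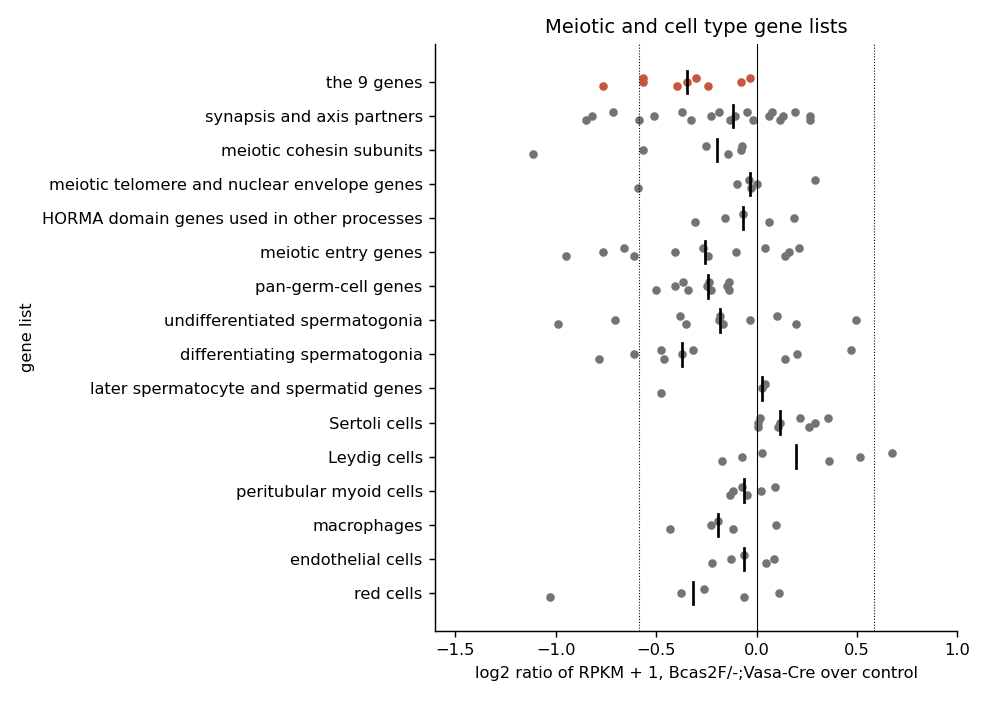
Log2 ratio of RPKM + 1 (Bcas2F/-;Vasa-Cre over control) of the tested genes of each list, 1 point per gene, with the median as a black bar and dotted lines at 1.5-fold. The 9 genes (red) all lie below 0 with a median of -0.35, as do the cohesin and pan-germ-cell genes with medians of -0.20 and -0.24, the Sertoli cell genes lie above 0 with a median of 0.12, and 1 red cell gene lies beyond the axis.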

How the data were processed

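Total RNA of P9 testes, 1 control and 1 Bcas2F/-;Vasa-Cre library, was sequenced in pairs by the authors, who removed adaptor and low-quality reads, mapped with TopHat2 2.0.9 to mm10 per the labels, used HTSeq for the counts and deposited them as RPKM. The annotation release, gene lengths and strand setting are not given in the sources used here. Of 39695 entries, 37606 (94.7%) matched GENCODE M21 (GRCm38) by identifier, which gave positions and transcript lengths. Whole reads were recovered from RPKM: 2736 of 5391 single-transcript genes gave the same control library size to the nearest read, 19918750, and the ratio between libraries gave 19331687 for Bcas2F/-;Vasa-Cre. Each gene's reads follow, with gene lengths taken as whole within 0.001 bases. For *Tex12*, *Syce1* and *Hormad1* the smallest whole length that fits both values was taken, so their reads may be a multiple of those printed. Their intervals may then be too wide and their levels scaled to the longest transcript too low.

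Log2 ratios of RPKM + 1 were computed where the mean RPKM reached 1, and called past 1.5-fold. The pseudocount understates changes of low genes. Because each genotype had 1 library, no p-value was computed. The named genes were the 9 genes, *Bcas2* and, from each list, at most the 5 largest changes past 1.5-fold and the 3 highest by mean RPKM. Members and lists were chosen with earlier results of these data known. Older symbols were accepted only where RefSeq names the same gene. Alternatives were other pseudocounts, filters, scalings and call rules. Procedures were tested on simulated data. Protein sequences and splicing were not analysed here. Python 3.11.15, numpy 2.4.6, scipy 1.17.1, pandas 2.3.3, matplotlib 3.10.9 and BLAST 2.17.0 were used.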

Additional observations from a re-analysis of the deposited data

How the results depend on the processing

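With 1 library per genotype, neither a spread between replicates nor leaving out a replicate could be computed. No paired analysis was possible because each genotype had 1 library. Over 6 alternatives (pseudocounts of 0.1 and 0.01, no filter or a minimum of 5, a median ratio of 0 and rescaled libraries), 54 of 54 values were below 0. Pseudocounts and filters cannot change the sign of a value, and centring on the median lowered every value. Only the rescaling could have changed a sign. The number of the 9 genes past 1.5-fold lower was 3 with a pseudocount of 0.1 or 0.01 (*Sycp1* and *Hormad1* joined *Syce3*), 0 past 2-fold, and 0 with the pan-germ-cell median set to 0. The last alternative, added after seeing the data, gave -0.32 for *Sycp1*, 0.17 for *Sycp2*, -0.058 for *Sycp3*, -0.10 for *Syce1*, -0.15 for *Syce2*, 0.21 for *Tex12*, -0.32 for *Hormad1* and a median of -0.10 over the 9 genes. By its construction it moves every gene up by 0.24.

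Among all genes, 251 were past 1.5-fold lower and 233 higher. The lower and higher counts were 457 and 454 with a pseudocount of 0.1, 485 and 491 with 0.01, 468 and 511 without a filter, 104 and 46 with a minimum mean RPKM of 5, 56 and 63 past 2-fold, and 89 and 752 with the pan-germ-cell median set to 0. After rescaling each library to a summed RPKM of 1000000 they were 356 and 434, and with the counting interval required to leave out no difference 185 and 112. A median ratio set to 0 gave 267 and 221. Depth limited *Syce3* and *Hormad2* most, with 150 and 144 reads in the control.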

Other observations

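Outside the germ line, *Cyp17a1*, a steroidogenic enzyme of Leydig cells, had 94.8 RPKM in the control and 152 in the Bcas2F/-;Vasa-Cre library (log2 ratio of RPKM + 1 of 0.68), while 4 of 6 Leydig cell genes were higher and 2 lower, with a median of 0.20. Of 6 red cell genes 5 were lower and 1 higher, with a median of -0.32 and a summed RPKM of 980 and 944. Past 1.5-fold lower were *Slc4a1*, the anion exchanger of the red cell membrane (15.7 and 0.607 RPKM, log2 -3.38), and *Hbb-bt*, an adult beta-globin (42.4 and 20.3 RPKM, log2 -1.03). The gene with the highest RPKM of the list, *Hbb-bs*, was the higher one (551 and 596 RPKM, log2 0.11). Of 5 tested macrophage genes 4 were lower (median -0.19), of 5 endothelial genes 3 (median -0.06), and of 6 peritubular myoid genes 4 (median -0.06), and 0 of these 16 genes were past 1.5-fold.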
